A study of Homo sapiens with 8 samples.

Results

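Ribosomal protein pseudogenes are genomic copies of the genes for the protein parts of the ribosome. The count table held 121 of them among its 15982 genes, taken as every row whose symbol is a ribosomal protein symbol followed by P and a number, such as RPL5P34. The gene whose symbol is left when that ending is removed is called the parent here, and the 121 rows belonged to 45 parents. RPS18, the parent of RPS18P12 and of 1 other row, had no row in the count table, so 44 parents and 119 pseudogenes formed pairs. GENCODE release 29, on GRCh38, lists 1048 genes that fit the same rule, and all 121 rows matched one of them by symbol. Of the 121, 112 are annotated as processed pseudogenes, 7 as transcribed processed pseudogenes and 2 as transcribed unprocessed pseudogenes. The longest transcript is a single exon in 112 of them.

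Ribosomal protein mRNAs are among the most abundant messages of a growing cell, and the genome carries many copies of them that arose when an mRNA was reverse transcribed and inserted elsewhere. Such processed copies lack the introns of the parent, and young copies differ from the parent mRNA at few bases. Most are thought not to make a protein, and a short read from a young copy can fit the parent mRNA as well as the copy. The parents share a terminal oligopyrimidine tract at the mRNA start, through which their translation is set together with that of elongation factors.

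The libraries came from 143BTK- cells, an established thymidine kinase-deficient line from a human osteosarcoma, kept without glucose in medium with 10 mM galactose and 5% dialyzed serum. One group of 4 libraries received a synthetic mimic of the microRNA hsa-miR-101-3p (miR-101) and the other group of 4 a negative control mimic, each at 80 pmol. Each dish was transfected a first time, then a further time at 48 h, and was collected at 120 h. The 4 libraries of a group come from 4 separate transfection experiments in 1 cell line, per the labels, and total RNA was sequenced after depletion of ribosomal RNA. In such bulk RNA, fewer cells with a transcript and less of it per cell cannot be told apart.

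Library totals ranged from 17603054 to 20160267 counts. EZH2, a long-known miR-101 target, stood at 28.1 ± 2.09 CPM (counts scaled to a common library size; SD, n = 4) with miR-101 and at 45.7 ± 5.12 CPM in controls (log2 fold change -0.70 ± 0.114 SE, edgeR adjusted p = 0.00561). The mesenchymal markers VIM, FN1 and SPARC averaged at least 258 CPM in each group. The osteoblast regulator RUNX2 averaged 25.4 CPM with miR-101 and 13.4 CPM in controls, and the collagen gene COL1A1 13.5 and 6.29 CPM. EPCAM, a marker of epithelium, stood near COL1A1 at 12.7 and 7.75 CPM, and PECAM1, of endothelium, at 1.64 and 2.41 CPM. COL1A2 and the markers PTPRC, CDH5 and HBB were not among the genes counted. RUNX2 and COL1A1 were higher with miR-101 by 0.93 ± 0.212 and 1.10 ± 0.311 on the log2 scale, with edgeR adjusted p = 0.0269 and 0.0619, and their part in the pseudogene values was not tested. MiR-101 replicate 4 and control replicate 3 stood apart: in them the 7 most counted genes took 18.01% and 18.3% of all counts, against 13.0% to 14.7% in the other 6 libraries. Replicates 1 and 2 of each group were close to each other: their variance was 4.54 and 5.67 times counting noise, against 17.8 to 88.7 times for other pairs of one group.

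The pseudogenes as a list stood higher with miR-101. Of the 121, 117 had counts high enough to be tested; RPL3P2, RPL12P6, RPS19P3 and RPL4P3, with 3 to 20 counts in a library, were not. In edgeR's quasi-likelihood test over the whole table, 10 of the 117 (8.55%) rose at an adjusted p under 0.05, where 3.3% of all 15905 tested genes rose. None fell at that threshold, where 3.32% of all tested genes did; 1 was lower at an unadjusted p under 0.05, and DESeq2 and the fit with the replicate number each called 0 lower. The median log2 fold change of the 117 was 0.36, against -0.01 over all tested genes, and 112 were above 0 and 5 below. At an unadjusted p under 0.05 there were 45 of the 117 (38.5%, 1 of them lower), where 22.3% of all tested genes had such a p. In 22 of the 117 every miR-101 library lay above every control library, where 7.76% of all tested genes did so, and in 2 of the 117, RPS2P32 and RPL23AP82, every miR-101 library lay below, where 7.34% did. The samples with the same replicate number tended to vary together, though not always most with their own number. With that number in the model 21 rose and none fell (5.55% of all genes rose). DESeq2 gave 19 higher and none lower (5.36% of all genes higher).

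The 10 that rose were RPL5P34, RPL5P23, RPL5P11, RPL5P4, RPL5P1, RPL13P12, RPS4XP11, RPS4XP3, RPL37P23 and RPL35P5, and all 10 were also called with the replicate number in the model and by DESeq2. The calls rested on few libraries. Without control replicate 2 none of the 117 was called, without miR-101 replicate 2 or control replicate 1 there were 2, and without control replicate 3 there were 24. In that last fit 24 of 121 tested pseudogenes rose, beside 18 of 922 pseudogenes of other genes. Shares of all tested genes called in fits with libraries left out or summed are not given here. With the similar replicates 1 and 2 of each group summed into 1, no pseudogene was called and the adjusted p of the 10 ran from 0.110 to 0.243, while their log2 fold changes stayed between 0.35 and 0.86.

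RPL5 encodes a protein of the large ribosomal subunit that, together with RPL11, binds the small 5S ribosomal RNA and can bind the p53 regulator MDM2. Its 6 pseudogenes made up 5 of the 10 calls. A stretch of 90 coding bases shows where 5 of them differ from RPL5 and from each other, and so which reads there separate them. This stretch was chosen in frame as one where the 5 together differ most from RPL5. It spans coding bases 358 to 447 of RPL5, read 5′ to 3′ on the coding strand in GENCODE 29 (GRCh38), with bases that differ from RPL5 in capitals. RPL5 lies at chr1:92831983-92841924 on the plus strand, and the stretch lies at chr22:42776850-42776939 (minus) in RPL5P34, chr15:24909376-24909465 (minus) in RPL5P1, chr1:35351075-35351164 (plus) in RPL5P4, chr4:173419728-173419817 (minus) in RPL5P11 and chr5:85464787-85464876 (plus) in RPL5P17.
RPL5: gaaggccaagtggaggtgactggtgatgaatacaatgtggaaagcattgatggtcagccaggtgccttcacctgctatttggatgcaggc
RPL5P34: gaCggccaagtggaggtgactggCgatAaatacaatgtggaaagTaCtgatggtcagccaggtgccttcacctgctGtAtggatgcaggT
RPL5P1: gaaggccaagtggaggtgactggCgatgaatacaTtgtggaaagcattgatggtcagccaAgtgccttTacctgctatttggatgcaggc
RPL5P4: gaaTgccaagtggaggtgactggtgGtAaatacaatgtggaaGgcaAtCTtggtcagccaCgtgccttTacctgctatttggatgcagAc
RPL5P11: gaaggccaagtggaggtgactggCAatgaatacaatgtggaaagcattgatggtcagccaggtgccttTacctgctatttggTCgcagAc
RPL5P17: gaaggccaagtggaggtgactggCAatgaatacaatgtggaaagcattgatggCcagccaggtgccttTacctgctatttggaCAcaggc

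In these 90 bases RPL5P1 differs from RPL5 at 4 bases, RPL5P11 and RPL5P17 at 6, RPL5P34 at 8 and RPL5P4 at 10. Over the whole alignment to RPL5 the substitutions number 32 in RPL5P1, 38 in RPL5P34, 48 in RPL5P4, 51 in RPL5P11 and 62 in RPL5P17, besides 3, 0, 8, 73 and 14 gap bases. RPL5P11 and RPL5P17 share several of their differences, as the lines above show. Of all 50-base words in the 5 copies, 80.1% in RPL5P1, 80.6% in RPL5P34, 84.3% in RPL5P4, 96.0% in RPL5P11 and 95.2% in RPL5P17 have no exact match in another annotated gene. With up to 2 differences allowed, 78.2% of the 50-base windows of RPL5P1 align to the RPL5 mRNA. The shares are 55.0% in RPL5P34, 39.8% in RPL5P4, 31.3% in RPL5P11 and 30.1% in RPL5P17.

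RPL5P34, an intergenic processed copy, had 134, 123, 117 and 135 CPM in miR-101 replicates 1 to 4 and 82.6, 80.1, 102 and 82.3 CPM in control replicates 1 to 4 (log2 fold change 0.56 ± 0.107 SE, edgeR adjusted p = 0.0126). Its lowest miR-101 library lay above its highest control library. RPL5P23, within an intron of POLB on the other strand, had 138, 156, 154 and 188 CPM with miR-101 and 98.1, 103, 122 and 104 CPM in controls (0.58 ± 0.12, edgeR adjusted p = 0.0176). The polymerase gene POLB itself averaged 20.3 ± 1.53 and 19.1 ± 1.66 CPM (n = 4 each; log2 fold change 0.09 ± 0.115), so the copy was counted above the gene that hosts it and moved apart from it.

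RPL5P4, in an intron of ZMYM4 on the same strand, had 82.1, 92.1, 93.7 and 119 CPM with miR-101 and 65.9, 58.2, 77.3 and 61.1 CPM in controls (log2 fold change 0.56 ± 0.136, edgeR adjusted p = 0.0338). RPL5P1, in an intron of SNRPN on the opposite strand, had 109, 120, 115 and 127 CPM with miR-101 and 85.9, 79.8, 99.5 and 83.2 CPM in controls (0.43 ± 0.102, edgeR adjusted p = 0.0298). RPL5P11, in no other gene, had 4.45, 3.90, 4.80 and 6.18 CPM with miR-101 and 2.64, 2.46, 2.42 and 3.30 CPM in controls (0.83 ± 0.194, edgeR adjusted p = 0.0287). The groups of each of these did not overlap, although RPL5P11 is the least counted copy and the one with the lowest identity to the parent (86.7%). RPL5P17, the member of the family that missed the threshold, had 15.6, 16.9, 16.7 and 25.1 CPM with miR-101 and 10.9, 11.2, 14.2 and 12.2 CPM in controls (0.62 ± 0.172, edgeR adjusted p = 0.0587), and with the replicate number in the model its edgeR adjusted p was 0.0399.

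RPL5 had 660, 651, 668 and 754 CPM with miR-101 and 476, 459, 568 and 480 CPM in controls (log2 fold change 0.46 ± 0.104, edgeR adjusted p = 0.0252). It rose beside its copies, and the 6 copies' log2 fold changes of 0.43 to 0.83 lay on both sides of that value.

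**Figure D1:**
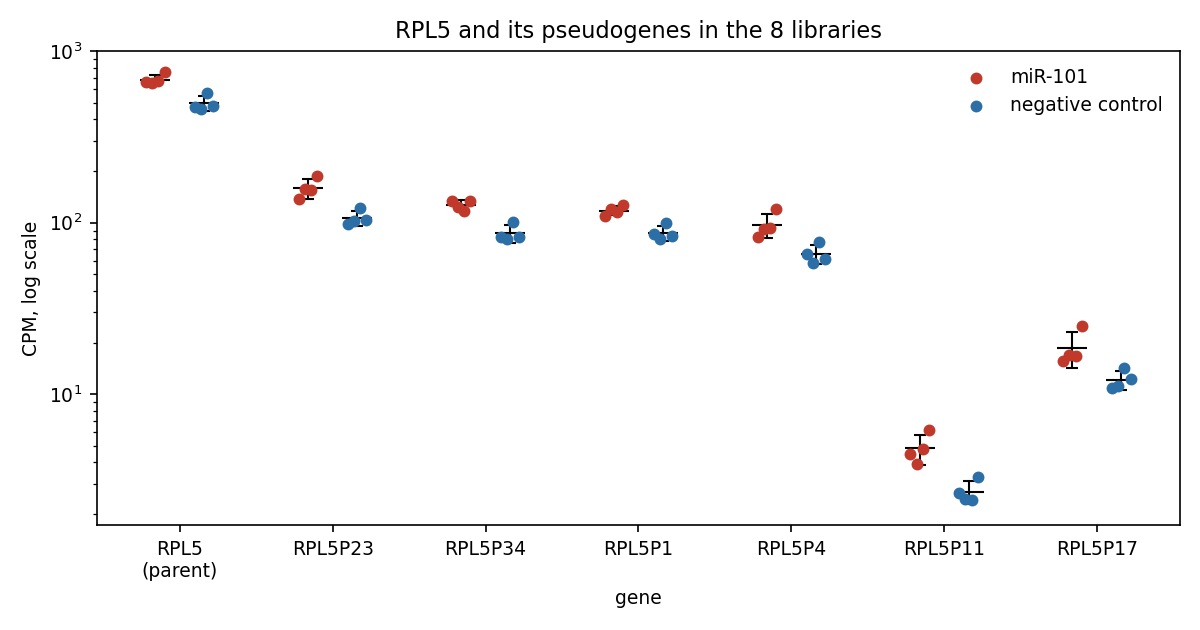
CPM (log scale) of RPL5 and its 6 pseudogenes in the 4 miR-101 and the 4 negative control libraries; points are libraries, bars the mean and SD. In all 7 genes every miR-101 library lies above every control library, from RPL5 with 459 to 754 CPM down to RPL5P11 with 2.42 to 6.18 CPM.

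RPL13P12 is a copy of RPL13, another gene of the large subunit, and is among the 10 most counted pseudogenes. It lies at chr17:17383377-17384012 on the minus strand and differs from the RPL13 coding sequence at 10 of 633 bases. Of these, 3 fall in coding bases 172 to 231, chosen as an in-frame stretch of 60 bases with the most differences. In the copy that stretch is chr17:17383782-17383841, and RPL13 lies at chr16:89560657-89566828 on the plus strand (5′ to 3′ on the coding strand, differing bases in capitals).
RPL13: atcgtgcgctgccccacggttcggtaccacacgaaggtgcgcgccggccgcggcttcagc
RPL13P12: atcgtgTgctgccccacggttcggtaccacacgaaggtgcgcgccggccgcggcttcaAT

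RPL13P12 had 584, 638, 640 and 674 CPM with miR-101 and 400.2, 414, 460.5 and 493 CPM in controls (log2 fold change 0.52 ± 0.103 SE, edgeR adjusted p = 0.0136). RPL13 had 630.5, 690.4, 686 and 610 CPM with miR-101 and 450.2, 453, 513 and 547 CPM in controls (0.42 ± 0.103, edgeR adjusted p = 0.0370). Both rose, and the copy was counted at 0.94 times its parent. The log2 ratio of the copy's count to the parent's was 0.11 higher with miR-101 on average, and 0.04 higher without miR-101 replicate 4.

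RPS4X, an X-linked gene of the small subunit, had 9 pseudogenes in the table, the most of any parent, and 2 of them rose. Coding bases 58 to 117, chosen in frame for the most differences from RPS4X in both copies together, show that RPS4XP11 and RPS4XP3 carry different substitutions. RPS4X lies at chrX:72255679-72277300 (minus), and the stretch is chr10:32103189-32103248 (minus) in RPS4XP11 and chr20:56601758-56601817 (plus) in RPS4XP3; capitals mark bases that differ from RPS4X, 5′ to 3′ on the coding strand.
RPS4X: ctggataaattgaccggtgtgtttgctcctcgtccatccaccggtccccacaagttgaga
RPS4XP11: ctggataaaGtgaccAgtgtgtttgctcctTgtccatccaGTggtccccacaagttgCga
RPS4XP3: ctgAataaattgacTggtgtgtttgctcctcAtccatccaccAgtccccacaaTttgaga

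RPS4XP11 had 113, 132, 141 and 128 CPM with miR-101 and 103, 88.1, 88.7 and 92.6 CPM in controls (log2 fold change 0.46 ± 0.103, edgeR adjusted p = 0.0237). RPS4XP3 had 91.7, 93.8, 95.7 and 88.7 CPM with miR-101 and 71.1, 71.0, 69.6 and 76.9 CPM in controls (0.36 ± 0.087, edgeR adjusted p = 0.0333). RPS4X itself averaged 1397 ± 88.4 against 1085 ± 38.1 CPM (n = 4 each; 0.36 ± 0.093, edgeR adjusted p = 0.0419). In all 3 the groups did not overlap. The other 7 copies of RPS4X had log2 fold changes from 0.17 to 0.97 and none passed; RPS4XP1 came nearest, with 2.84, 3.20, 3.08 and 5.31 CPM against 1.32, 1.93, 1.99 and 2.53 CPM (0.88 ± 0.261, edgeR adjusted p = 0.0715, and 0.0190 with the replicate number in the model). RPS4XP14, near 1 CPM, RPS4XP2, RPS4XP6, RPS4XP13, RPS4XP12 and RPS4XP7 had adjusted p-values in that edgeR test from 0.104 to 0.745.

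RPL37P23, from the large-subunit gene RPL37, had 172, 176, 197 and 237 CPM with miR-101 and 119, 120, 153 and 150 CPM in controls (log2 fold change 0.53 ± 0.136, edgeR adjusted p = 0.0416). RPL37 itself averaged 609 ± 77.4 against 429 ± 67.2 CPM (n = 4 each; 0.51 ± 0.137, edgeR adjusted p = 0.0523, and 0.00949 with the replicate number in the model). RPL35P5, from the large-subunit gene RPL35, had 186, 194, 176 and 187 CPM with miR-101 and 145, 136, 146 and 145 CPM in controls (0.38 ± 0.086, edgeR adjusted p = 0.0254). Its parent RPL35 had 602, 669, 629 and 707 CPM against 515, 508, 509 and 523 CPM (0.34 ± 0.091, edgeR adjusted p = 0.04999). For these copies and parents alike, every miR-101 library lay above every control library.

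The parents moved much as their copies did. Of the 44 parents 6 rose, RPL12, RPL13, RPL5, RPS4X, RPL37A and RPL35, and none fell, with a median log2 fold change of 0.35 and 43 above 0; with the replicate number in the model 16 rose, and with DESeq2 12. Over all tested genes 3.3% rose. None of the parents was called with replicates 1 and 2 summed, nor when any 1 of miR-101 replicates 2 and 3 and control replicates 1 and 2 was left out. In the 115 pairs with both genes tested, the pseudogene's log2 fold change minus the parent's had a median of 0.02, with 61 pairs above 0 and 54 below, and in 78 it lay within 0.2. The range of the 115 was wide, from -0.75 to 1.44. In the 70 pairs whose pseudogene averaged at least 5 CPM it ran from -0.66 to 0.57, and 60 lay within 0.2. Over those 70 the fold changes of copy and parent had Pearson's r = 0.53 and Spearman's rho = 0.62; pairs of one family share a parent and all share the libraries, so these are descriptions only. The values cannot show whether a copy and its parent changed as separate RNAs, since how reads that fit both were assigned is not given in the sources used here.

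**Figure D2:**
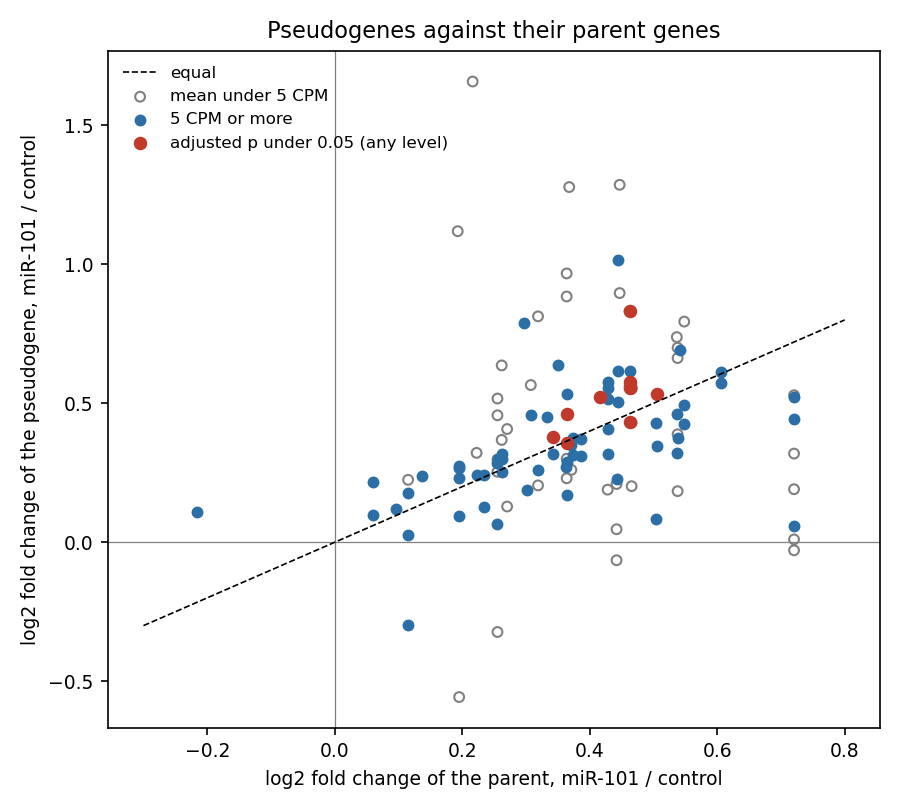
Log2 fold change (miR-101 over control) of each tested pseudogene against that of its parent. Each point is 1 of 115 pairs, filled from 5 CPM and open below. Filled red points at any level are pseudogenes that passed an adjusted p of 0.05 in edgeR. Of the 70 points at 5 CPM or more, 60 lie within 0.2 of the line of equal change, and the 70 run from -0.66 to 0.57 about it. All 115 run from -0.75 to 1.44.

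The count of a pseudogene divided by that of its parent, taken in each library with 0.5 added to both counts, separated the groups in 6 of the 115 pairs (5.22%), against 6.76% of 725 pairs of other pseudogenes with the gene their symbol is made from. RPL13P12 and RPS19P1 were higher relative to the parent with miR-101, and RPL37P2, RPL10AP6, RPL23AP82 and RPL26P30 lower. RPL37P2, RPL10AP6 and RPL26P30 are named after their values were seen. The shift was -0.17 on the log2 scale for RPL37P2, -0.08 for RPL10AP6, -0.56 for RPL23AP82 and -0.43 for RPL26P30. The summed counts of the 119 paired pseudogenes came to 51.7%, 52.4%, 52.1% and 53.6% of the summed counts of the 44 parents in miR-101 replicates 1 to 4, and to 50.7%, 50.3%, 52.7% and 52.5% in the controls, so the groups overlapped. As a share of all counts the same pseudogenes stood at 1.51 ± 0.110% with miR-101 and 1.19 ± 0.111% in controls, and the parents at 2.88 ± 0.176% and 2.31 ± 0.161% (SD, n = 4 each). The lowest miR-101 library, at 1.40% for the pseudogenes, was above the highest control library, at 1.32%.

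The pseudogenes least like their parent in sequence had the lowest median fold change. Likeness was measured as the share of a pseudogene's 50-base windows that align to the parent mRNA with at most 2 differences. In 9 pseudogenes under 10% of the windows did so, and their median log2 fold change was 0.08, against 0.45, 0.36 and 0.38 in the classes from 10% to 50%, 50% to 90% and 90% to 100%. These classes were set with the fold changes known. The 9 had a median of 2.45 CPM, and 7 of them averaged under 5 CPM; the 45 tested pseudogenes under 5 CPM, these 7 included, had a median log2 fold change of 0.39. The part of low counts was not tested. The 9 include transcripts of which the ribosomal protein copy is only a part.

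RPL7P22, RPL7P21 and RPL7P46 align to RPL7, a large-subunit gene, over 26.1%, 30.1% and 25.4% of their length at 67.2% to 68.2% identity. Of their 50-base words 0% occur in an annotated RPL7 transcript, and RPL7 was taken as their parent from the symbol alone. RPL7P22 had 5.63, 7.75, 7.05 and 8.23 CPM with miR-101 and 6.10, 5.75, 7.14 and 8.56 CPM in controls (log2 fold change 0.06 ± 0.177). RPL7P21 stood at 3.25 ± 0.207 and 3.22 ± 0.396 CPM (0.01 ± 0.162), and RPL7P46 at 2.43 ± 0.325 and 2.48 ± 0.650 CPM (-0.03 ± 0.221; SD, n = 4 each). The other 5 pseudogenes named after RPL7, at 96.4% to 99.7% identity, had 0.19 to 0.53, and RPL7 itself 0.72 ± 0.245 (edgeR adjusted p = 0.111). RPL26P30 aligns to RPL26 over 37.3% of its own transcript, at 83.4% identity. It had 23.2, 21.6, 21.4 and 31.6 CPM with miR-101 and 21.3, 20.8, 26.0 and 24.1 CPM in controls (0.08 ± 0.148), where RPL26 had 0.50 ± 0.196. Not all of the 9 differed from the parent: RPL23AP7, RPL23AP53 and RPS4XP12 had log2 fold changes of 0.25, 0.30 and 0.30, within 0.1 of their parents' values.

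RPS2P32 is the processed pseudogene whose miR-101 libraries all lay below its controls. RPS2 is a gene of the small subunit, and the copy differs from its coding sequence at 75 of the 850 aligned coding bases. Coding bases 196 to 255 were chosen as an in-frame stretch of 60 bases with the most differences, 8, so they diverge more than the copy as a whole. They lie at chr7:23490675-23490734 on the plus strand in the copy, with RPS2 at chr16:1962052-1964860 on the minus strand (5′ to 3′ on the coding strand, differing bases in capitals).
RPS2: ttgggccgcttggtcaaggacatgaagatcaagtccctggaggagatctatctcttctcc
RPS2P32: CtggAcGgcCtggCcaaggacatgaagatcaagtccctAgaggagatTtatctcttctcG

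RPS2P32 had 8.64, 8.60, 7.69 and 8.34 CPM with miR-101 and 10.9, 10.3, 9.68 and 9.94 CPM in controls (log2 fold change -0.30 ± 0.12, edgeR adjusted p = 0.175). RPS2 averaged 720.0 ± 73.0 and 665 ± 59.0 CPM (0.12 ± 0.110). The copy did not pass the test, and 96.2% of its 50-base words are in no other annotated gene. RPL23AP82, an unprocessed copy on chromosome 22 that overlaps an exon of RABL2B on the other strand, had 3.59, 3.65, 3.92 and 3.79 CPM with miR-101 and 5.22, 5.33, 4.10 and 4.06 CPM in controls (-0.32 ± 0.159, edgeR adjusted p = 0.264). RABL2B had 1.79 ± 0.414 and 1.97 ± 0.139 CPM. RPL13AP20, from the large-subunit gene RPL13A (0.44 ± 0.143), had -0.06 ± 0.333.

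Among pseudogenes above 1 CPM the largest rises were not the surest. RPS19P1, from the small-subunit gene RPS19, had 2.25, 2.80, 2.74 and 5.90 CPM with miR-101 and 0.604, 1.57, 2.05 and 2.06 CPM in controls (log2 fold change 1.12 ± 0.390, edgeR adjusted p = 0.119, and 0.0308 with the replicate number in the model), where RPS19 had 0.19 ± 0.124. RPS3AP26, in an intron of BAIAP2L1 on the same strand, had 52.0, 91.6, 103 and 165 CPM with miR-101 and 24.9, 36.6, 98.2 and 44.4 CPM in controls (1.01 ± 0.417, edgeR adjusted p = 0.180, and 0.0330 with the replicate number in the model). The groups of RPS3AP26 overlapped through control replicate 3. BAIAP2L1 itself averaged 14.6 ± 1.38 and 19.0 ± 2.96 CPM (-0.38 ± 0.140), and the parent RPS3A 300.4 ± 82.7 and 221 ± 71.3 CPM (0.44 ± 0.229). RPS4XP14 had 1.66 ± 0.823 and 0.858 ± 0.414 CPM (0.97 ± 0.402, edgeR adjusted p = 0.186).

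The pseudogenes differed in level over more than 3 orders of 10, from 0.455 to 1274 CPM (mean over the 8 libraries), with a median of 13.7; 36 averaged at least 100 CPM and 22 under 1 CPM. The 10 most counted held 50.6% of all pseudogene counts. RPL4P4, a copy of the large-subunit gene RPL4 in an intron of MAP3K13 on the other strand, led with 1229, 1381, 1537 and 1376 CPM with miR-101 and 1150, 1121, 1321 and 1081 CPM in controls (log2 fold change 0.24 ± 0.108, edgeR adjusted p = 0.220). MAP3K13 had 31.8 ± 1.96 and 31.6 ± 2.03 CPM. RPL3P4, from the large-subunit gene RPL3, had 783, 837, 998 and 825 CPM with miR-101 and 621, 612, 756 and 663 CPM in controls (0.38 ± 0.114, edgeR adjusted p = 0.0774, and 0.0276 with the replicate number in the model). Its groups did not overlap, and neither did those of RPL3 (0.37 ± 0.117, edgeR adjusted p = 0.0868).

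Of the other most counted copies, RPL13AP5 (0.23 ± 0.122), RPS23P8 (0.25 ± 0.153) and RPL14P1 (0.10 ± 0.10) had overlapping groups and edgeR adjusted p-values of 0.303 to 0.607. RPL13AP5 averaged 779 ± 99.0 and 665 ± 74.4 CPM, RPS23P8 784 ± 127 and 657 ± 124 CPM, and RPL14P1 462 ± 14.7 and 432 ± 43.2 CPM (miR-101 and control, SD, n = 4). Their parents RPL13A, RPS23 (0.26 ± 0.171) and RPL14 (0.06 ± 0.102) did not pass either.

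As a share of the parent's count the median pseudogene stood at 6.29%, 33 stood under 1%, and 13 were counted above their parent. Per kilobase, with the pseudogene's exon length and the parent's coding length, 14 were above. The highest such ratios, singled out after their values were seen along with the genes they name, were 20.8 for RPL7P9, 15.4 for RPS28P7, 6.74 for RPL7P1, 4.74 for RPL18AP3, 3.36 for RPL3P4 and 2.89 for RPS7P1. RPS28P7 is identical to RPS28, a small-subunit gene, over all 207 coding bases, and the first 60 are shown because no read within them can tell the genes apart. The copy's stretch is chr11:82689559-82689618 on the plus strand and RPS28 lies at chr19:8321158-8323340 on the plus strand (5′ to 3′, no differing bases).
RPS28: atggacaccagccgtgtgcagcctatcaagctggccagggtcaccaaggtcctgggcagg
RPS28P7: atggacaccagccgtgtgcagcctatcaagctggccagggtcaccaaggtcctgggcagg

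RPS28P7 had 188, 201, 221 and 193 CPM with miR-101 and 152, 185, 189 and 218 CPM in controls (log2 fold change 0.11 ± 0.12). RPS28 had 12.4, 10.6, 13.3 and 9.43 CPM with miR-101 and 12.7, 13.0, 11.2 and 16.2 CPM in controls (-0.22 ± 0.158). The intronless copy was thus counted well above the gene that is annotated as making the protein, in every library. None of the 50-base words of RPS28P7 is specific to it, so the counts cannot say which of the genes the RNA came from. RPL7P9 showed the same order, with 925, 851, 993 and 1555 CPM with miR-101 and 675, 574, 1155 and 603 CPM in controls (0.52 ± 0.249, edgeR adjusted p = 0.247). RPL7 had 46.3, 41.2, 47.2 and 83.9 CPM with miR-101 and 25.9, 28.7, 46.8 and 31.3 CPM in controls. RPL7P9 differs from the RPL7 mRNA at 2 of 747 aligned bases, and 13.2% of its 50-base words are in no other annotated gene.

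Level went with likeness to the parent. The median was 2.45 CPM in the 9 pseudogenes under 10% of windows, 8.76 CPM in the 37 from 10% to 50%, 24.5 CPM in the 42 from 50% to 90% and 196.7 CPM in the 33 from 90% to 100%. In the last class the median pseudogene was counted at 58.0% of its parent. Over the 121 the log2 of the mean CPM and the share of windows had Pearson's r = 0.45 and Spearman's rho = 0.46, with the libraries shared by all points. Copies that match the parent nearly throughout still ran from 0.574 CPM to 1274 CPM, so likeness alone does not order them.

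**Figure D3:**
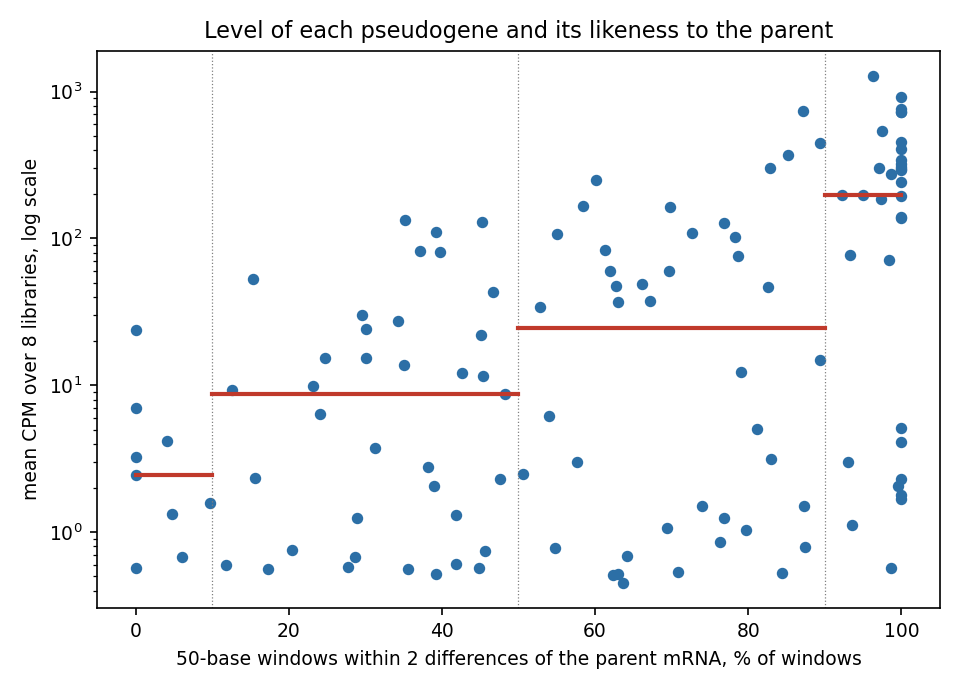
Mean CPM of each of the 121 pseudogenes (log scale) against the percent of its 50-base windows within 2 differences of the parent mRNA; red lines are the medians of the 4 classes set off by dotted lines. The medians rise from 2.45 to 196.7 CPM, with a wide spread inside each class.

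Among the parents the medians ran in the opposite order. For each, the share of 50-base words of the coding sequence that also occur in at least 1 annotated pseudogene of its name was taken, and the mean CPM was divided by coding length. The 13 parents under 30% had a median of 2348 CPM per coding kilobase, the 18 from 30% to 70% had 635, and the 13 above 70% had 241. Over the 44 parents Pearson's r was -0.58 and Spearman's rho -0.57. RPL37A, with 4.41% of its words in a pseudogene, reached 4589 CPM per kilobase, while RPL7 with 99.7% stood at 59.0, RPS28 with 100% at 59.7 and RPL21 with 100% at 51.3. Several parents go against this order. RPL39 stood at 3011 CPM per kilobase with 100% of its words in a pseudogene and RPL15 at 1501 with 78.7%, while the lowest parents, RPS10 at 19.9 and RPL17 at 32.8, had 36.3% and 54.5%. Proteins of the ribosome are needed in nearly equal numbers, but their mRNA levels were not measured in another way here, and the part of read assignment in these values was not tested.

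**Figure D4:**
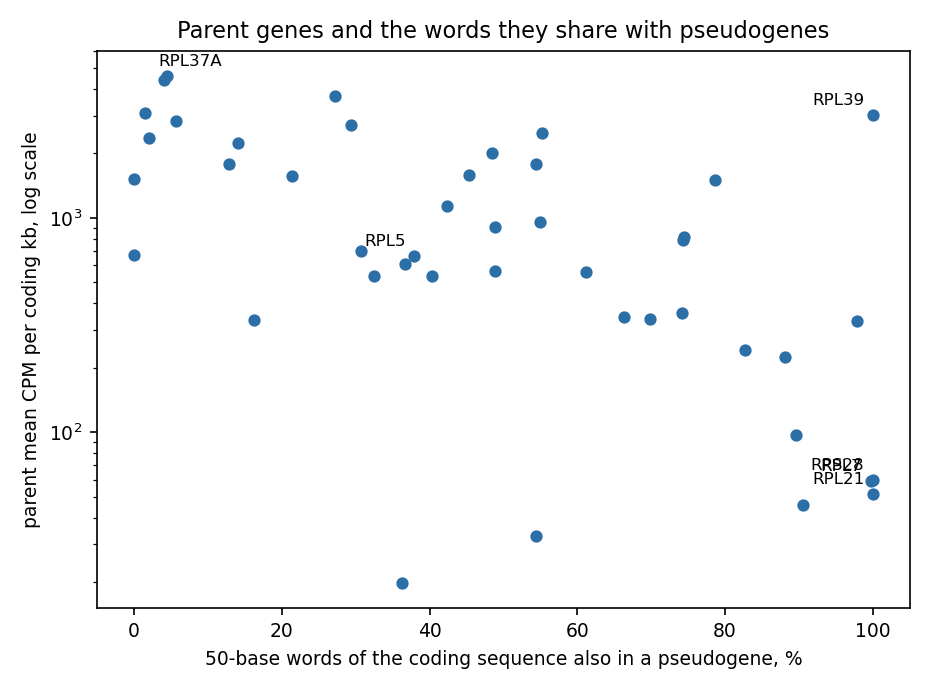
Mean CPM per coding kilobase of the 44 parents (log scale) against the percent of 50-base words of their coding sequence that also lie in an annotated pseudogene of the same name. RPL7, RPS28 and RPL21, at the right, have 51.3 to 59.7 CPM per kilobase, against 4589 for RPL37A at the left; RPL39 is high at the right.

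Libraries of one group differed for some pseudogenes. Among the 36 pseudogenes of at least 100 CPM, 12 stood more than 0.3 above their group's mean log2 CPM in miR-101 replicate 4 and 13 did so in control replicate 3, and 12 did so in both. They include copies of RPS3A, RPL39, RPL7, RPS15A, RPS7, RPL26 and RPL24. RPL39P3, whose 156 bases match RPL39 throughout, had 434, 432, 447 and 792 CPM with miR-101 and 349, 314, 565 and 305 CPM in controls (log2 fold change 0.46 ± 0.245, edgeR adjusted p = 0.305). RPL26P19 had 757, 760.1, 778 and 1080 CPM with miR-101 and 591, 521, 847 and 551 CPM in controls (0.43 ± 0.175, edgeR adjusted p = 0.179). RPS7P1, whose parent's protein can bind MDM2, had 385, 411, 486 and 687 CPM with miR-101 and 256, 239, 467 and 325 CPM in controls (0.61 ± 0.234, edgeR adjusted p = 0.151, and 0.0399 with the replicate number in the model). In each, the highest library of either group was 1 of the 2 that stood apart in the whole table, and control replicate 3 overlapped the miR-101 group. Copies of RPL13A, RPL7A and RPS2 lay at or below their group's mean in miR-101 replicate 4, down to -0.25. Of the copies that rose, RPL13P12, RPL35P5 and RPS4XP11 deviated by at most 0.09 in those 2 libraries. RPL37P23, RPL5P23, RPL5P34 and RPL5P1, which also rose, deviated by more than that in at least 1 of them. RPL5P34 had 102 CPM in control replicate 3, where the next control had 82.6 CPM.

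Without both of these libraries 27 of 116 tested pseudogenes rose and none fell, 8 of the 10 among them. In the same fit 17 of 911 tested pseudogenes of other genes rose, and 13 parents did. The share of all tested genes called in that fit is not given here. This alternative was added after the data had been seen.

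**Figure D5:**
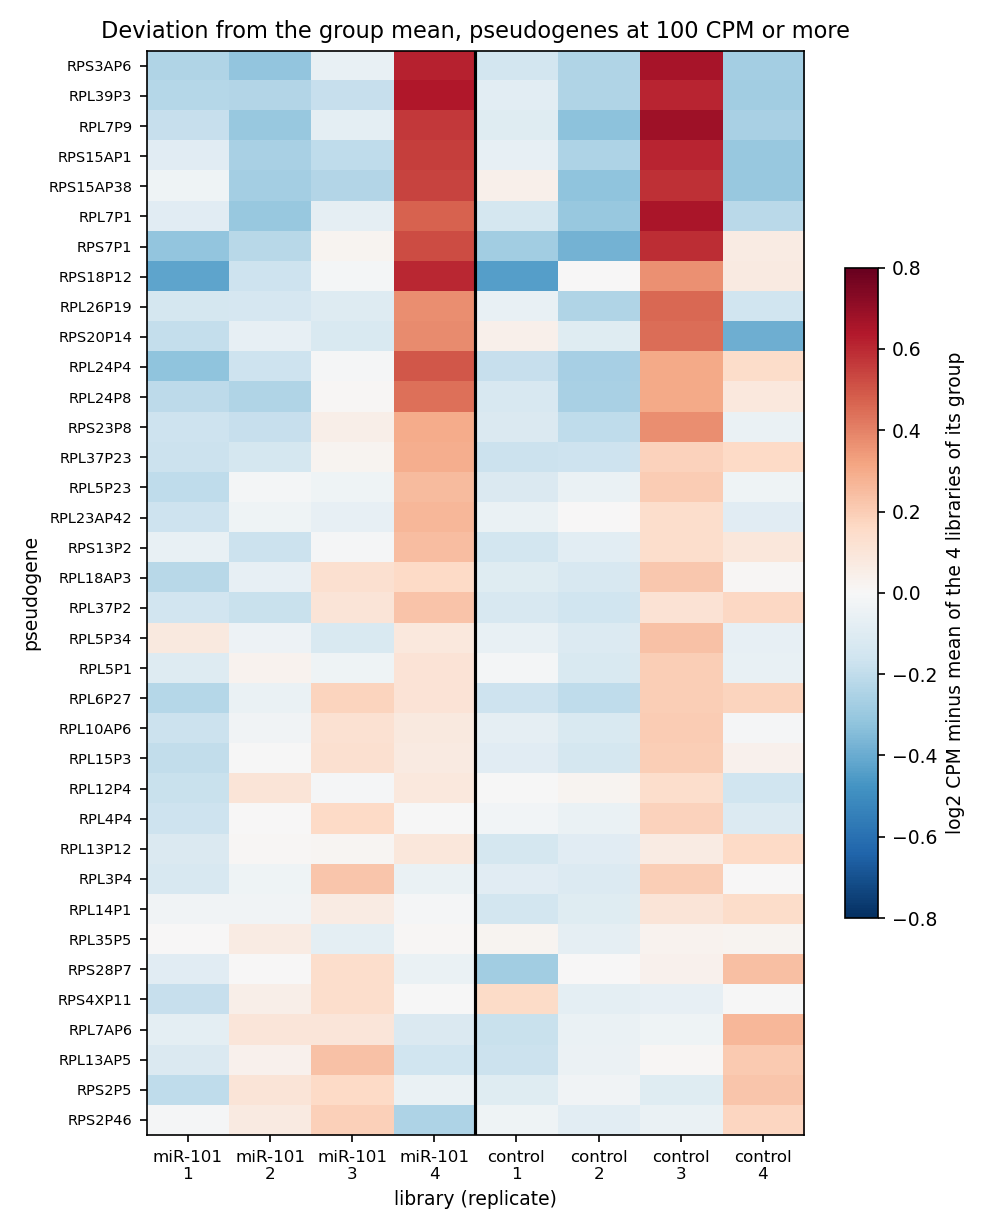
Log2 CPM minus the mean of the 4 libraries of its own group, for the 36 pseudogenes with at least 100 CPM (rows, ordered by the sum of miR-101 replicate 4 and control replicate 3) in the 8 libraries (columns). Red marks higher and blue lower; the top rows are above their group's mean in miR-101 replicate 4 and control replicate 3, by up to 0.64 and 0.68.

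The profile of a copy across the libraries was usually near that of its own parent. For each of the 70 paired pseudogenes of at least 5 CPM, the 44 parents were ranked by the root mean square distance between log2 CPM values centred within each group. Its own parent was the nearest in 28 and within the first 5 in 48, with a median rank of 2. The median distance was 0.08 to the own parent and 0.20 to the others. Over all 119 pairs the own parent was first in 30.

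The families with the most rows were RPS4X with 9, RPL7 with 8 and RPL23A with 7. None of the pseudogenes named after RPL7 and RPL23A passed the test. RPL7P1, in an intron of CSF1R on the other strand, had 314, 271, 318 and 465 CPM with miR-101 and 220.2, 196, 381 and 209 CPM in controls (log2 fold change 0.44 ± 0.229, edgeR adjusted p = 0.284), and again control replicate 3 was the high control. RPL7P23 had 3.57 ± 1.27 and 2.48 ± 0.693 CPM (0.53 ± 0.271), RPL7P6 0.873 ± 0.304 and 0.708 ± 0.332 CPM, and RPL7P32 0.560 ± 0.178 and 0.493 ± 0.201 CPM. RPL23A, a large-subunit gene whose protein lies near the exit of the peptide tunnel, averaged 114 ± 10.7 and 95.7 ± 7.02 CPM (0.26 ± 0.103, edgeR adjusted p = 0.171). Its leading copy RPL23AP42 had 136, 150, 146 and 184 CPM with miR-101 and 122, 126, 139 and 119 CPM in controls (0.28 ± 0.114, edgeR adjusted p = 0.169), above the parent at 1.33 times per kilobase. RPL23AP65 (0.06 ± 0.145), RPL23AP2 (0.52 ± 0.258), RPL23AP74 (0.46 ± 0.218), RPL23AP53 (0.30 ± 0.210) and RPL23AP7 (0.25 ± 0.217) were at 1.19 to 5.18 CPM in either group, and their groups overlapped.

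The copies were also sorted by where they lie. In GENCODE 29, 64 pseudogenes lie in no other gene, 47 in an intron and 10 over an exon of another gene, with median log2 fold changes of 0.36, 0.37 and 0.31 and with 6, 4 and 0 that rose. The 21 with a host on the same strand had a median of 0.28 and the 36 with a host only on the opposite strand 0.39. The differences between these classes were not tested. Whether the authors counted by strand is not given in the sources used here, so reads of a copy and of a host on the other strand cannot be told apart. Of 40 pseudogenes with a host in the table, 38 could be compared with host and parent, and in 30 of them the copy's log2 fold change was nearer to the parent's than to the host's. Among these hosts 20 were above 0 and 18 below. The host of RPL10AP6, PTPRG, rose (191 against 104 CPM; 0.87 ± 0.121, edgeR adjusted p = 0.00271), while RPL10AP6 had 0.31 and its parent RPL10A 0.39. The hosts of RPL21P28 and RPL12P12, DTL and RIN2, fell (-0.37 ± 0.097 and -0.77 ± 0.115, edgeR adjusted p = 0.0463 and 0.00398), while the copies had 0.43 and 0.39. RPL10AP6, RPL21P28 and RPL12P12 are named here because their hosts passed the test.

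Matches to the seed of the mimic were few among the pseudogenes. The mature hsa-miR-101-3p, at chr9:4850345-4850365 on the plus strand in RefSeq (GRCh38.p14), is shown 5′ to 3′ with its seed, bases 2 to 8, in capitals.
hsa-miR-101-3p: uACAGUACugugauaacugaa

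Transcripts were searched on their own strand only for GTACTGT, which pairs with bases 2 to 8, and for TACTGTA, which pairs with bases 2 to 7 and ends in an A; a transcript with GTACTGTA would hold both. Of the 121 pseudogenes 6 held a match (4.96%), against 293 of 5335 other processed pseudogene transcripts of 354 to 891 bases (5.49%). The 121 themselves ran from 127 to 2319 bases, so the 2 shares are not from the same range of lengths. RPL4P5 and RPS19P3 held TACTGTA. The other 4 are the copies of RPL21, a large-subunit gene, and all hold GTACTGT at the place where RPL21 itself has it, within the coding sequence. The 7 bases are shown in capitals with 10 bases on either side, 5′ to 3′ on the coding strand, from RPL21 (chr13:27251309-27256691, plus), RPL21P75 (chr7:20002765-20003247, plus), RPL21P28 (chr1:212051524-212052006, minus), RPL21P11 (chr14:90366697-90367179, minus) and RPL21P119 (chr16:9156402-9156881, minus).
RPL21: aagggaatggGTACTGTtcaaaaagga
RPL21P75: aagggaatggGTACTGTtcaaaaagga
RPL21P28: aagggaacggGTACTGTtcaaaaagga
RPL21P11: aagggaatggGTACTGTtcaaaaagga
RPL21P119: aagggaatggGTACTGTtcaaaaagga

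RPL21P75, the most counted of the 4, had 4.83, 4.15, 4.6 and 5.96 CPM with miR-101 and 3.46, 2.66, 4.22 and 3.01 CPM in controls (log2 fold change 0.55 ± 0.192, edgeR adjusted p = 0.119). RPL21P28, RPL21P11 and RPL21P119 had 0.43 ± 0.231, 0.56 ± 0.381 and 0.20 ± 0.205. RPL21 itself had 27.8, 26.6, 24.7 and 35.2 CPM with miR-101 and 20.9, 20.01, 21.4 and 20.5 CPM in controls (0.47 ± 0.126, edgeR adjusted p = 0.0523), with groups that did not overlap. The 5 tested pseudogenes with a match had a median log2 fold change of 0.43, the lowest being 0.20; RPS19P3 was not tested. Among the parent mRNAs, RPL21 and RPL37A held GTACTGT, and RPL17, RPL37, RPS19 and RPS4X held TACTGTA. Of these RPL37A and RPS4X rose, and RPL21, RPL17, RPL37 and RPS19 did not pass. A match of letters is no measure of binding.

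Other gene lists give the setting. All 80 cytosolic ribosomal protein genes in the table had a median log2 fold change of 0.31, where the pseudogenes' median was 0.36. Of the 80, 10 rose and none fell, where 3.3% of all tested genes rose. With the replicate number in the model 21 rose (5.55% of all genes rose), and with DESeq2 18 (5.36% of all genes). With replicates 1 and 2 summed the list gave 0, as it did when any 1 of the same 4 libraries as for the parents was left out. The list of 29 other genes whose mRNAs carry or are taken to carry a terminal oligopyrimidine tract had a median of 0.08, with 19 above 0 and 10 below, down to -0.30. These 29 are called the other translation genes below, although not all act in translation: VIM and GAS5 are among them. In it 1 gene rose (3.45%, against 3.3% of all tested genes), GAS5, a noncoding host of small nucleolar RNAs, at 415 ± 21.3 against 313 ± 29.5 CPM (0.41 ± 0.10, edgeR adjusted p = 0.0366). That call was lost with replicates 1 and 2 summed and in 6 of the 8 fits that leave out 1 library. The elongation factors EEF1B2 (0.46 ± 0.128) and EEF2 (0.40 ± 0.116) and the helicase EIF4A2 (0.36 ± 0.109) had edgeR adjusted p-values of 0.0603, 0.0691 and 0.0770. The 922 other pseudogene rows, of which 913 were tested, had a median of 0.01, with 14 that rose and 12 that fell.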

How the data were processed

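RNA was sequenced in 8 libraries, 4 with the miR-101 mimic and 4 with the negative control mimic. The authors deposited 1 table of counts per gene; the submitters' processing notes list the build hg38 and, with no stated role, StringTie (version 1.2.4), TopHat2 (version 2.0.14) and bcl2fastq (version 2.18.0.12). How reads with several matches were placed, and whether strand was used, is not given in the sources used here. Library totals ran from 17603054 to 20160267 counts, and no column of the table was left out.

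The counts were fitted over the whole table with edgeR 4.0.16 (R 4.3.3; filterByExpr, TMM, quasi-likelihood test, group only), and p-values were adjusted over all 15905 tested genes by Benjamini-Hochberg; a gene is called under 0.05. CPM uses TMM library sizes, and ± on a log2 fold change is its SE, taken as the size of the change over the square root of the test's F. DESeq2 1.42.0, RLE size factors, library totals, other filters, left-out libraries and a replicate block were alternatives. The fitting procedure was tested on simulated data. P-values measure the spread between these libraries.

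Same-numbered libraries of the groups deviated together over genes (correlations 0.33, 0.43, 0.19 and 0.21 for replicates 1 to 4). The fit with the number as a block is given beside the counts it moves. For single genes outside the main calls, the adjusted p of that edgeR fit is printed only where it was under 0.05, and not in every such case. The number comes from the labels, which count separate transfection experiments. The pairing is loose: miR-101 replicate 4 correlated more with control replicate 3 (0.39) than with its own number, and replicate 1 with control replicate 2 (0.37).

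Members and gene lists were chosen with earlier results of these data known. Named by rule were the called pseudogenes, the 10 most counted, the 5 largest rises and falls from 1 CPM, all of the 3 largest families, their parents and hosts, and 4 translation genes. Identity and 50-base words came from GENCODE 29 transcripts and blastn.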

Additional observations from a re-analysis of the deposited data

Results flagged for a closer look

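In 134 groups of 4 libraries (66 named genes and the summed pseudogene share of parent counts, in each treatment; 13 genes named only as hosts were not checked), 15 held a library so far from the other 3 that the gap to its nearest neighbour took more of the group's whole range than Dixon's critical value at the 95% level allows; chance gives about 1 in 20 such groups. Of the 15, 7 were miR-101 replicate 4 and 6 were control replicate 3, the libraries in which the most counted genes take the largest share of counts.

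With miR-101, replicate 4 stood above the others for RPL26P19 (1080 CPM, next 778), RPL39P3 (792 CPM, next 447), RPS19P1 (5.90 CPM, next 2.80), RPS4XP1 (5.31 CPM, next 3.20), RPL7P23 (5.47 CPM, next 3.05), RPL26 (1757 CPM, next 1126) and RPL7 (83.9 CPM, next 47.2). Among controls, replicate 3 stood above the others for RPL5P34 (102 CPM, next 82.6), RPL39P3 (565 CPM, next 349), RPL7P1 (381 CPM, next 220.2), RPL26 (1214 CPM, next 800.3), RPS3A (327 CPM, next 197) and EEF1B2 (263 CPM, next 199). Control replicate 2 stood below for RPL35P5 (136 CPM, next 145), and control replicate 1 above for RPL23AP74 (1.81 CPM, next 1.43).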

How the results depend on the processing

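The median log2 fold change of the pseudogenes lay between 0.26 and 0.43, and that of the parents between 0.25 and 0.42, under every alternative run; the group difference in summed pseudogene counts per parent counts moved by less than the spread between libraries without RPL4P4 or without pseudogenes inside other genes, and a pseudocount of 2 again gave 6 pairs with separated count ratios. Neither was rerun with libraries left out. Counts of calls depended on the libraries. In the fit with the replicate block, 21 pseudogenes, 16 parents, 21 of all ribosomal protein genes and 4 other translation genes rose, and 21 other pseudogenes rose and 19 fell. DESeq2 gave 19, 12, 18 and 4 higher, and 24 higher and 25 lower among other pseudogenes. With replicates 1 and 2 summed, 0 in each of the first 4 lists rose, and 3 other pseudogenes rose and 1 fell; with replicates 3 and 4 alone all of these were 0. A fit of replicates 1 and 2 alone was added after seeing the data. The variance between these replicates was 4.54 (miR-101) and 5.67 (control) times counting noise, less than for any other pair of one group. That fit gave 66 of 115 tested pseudogenes higher and 1 lower, 36 parents and 57 ribosomal protein genes. The same fit gave 9 other translation genes higher and 3 lower, and 68 higher and 90 lower among 902 other pseudogenes. Its share of all tested genes is not given here. Library totals alone gave 3 other translation genes. Leaving out 1 library at a time gave 0 to 24 pseudogenes, 0 to 11 parents, 0 to 18 ribosomal protein genes and 0 to 2 other translation genes higher, and 4 to 18 other pseudogenes higher and 4 to 24 lower; without both miR-101 replicate 4 and control replicate 3 the first 4 were 27, 13, 19 and 3. The median of the other pseudogenes, near 0, ran from -0.0243 (without miR-101 replicate 4) to 0.0137 (without control replicate 4) and was -0.00878 without control replicate 2 and -0.0106 without both libraries. The cause of these shifts was not tested, apart from the smaller number of samples by construction. The median of all genes moved by under 0.02 in every fit. Depth limits the 22 pseudogenes that averaged under 1 CPM, and how reads that match both a copy and its parent were counted is not given in the sources used here.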
